A study of Drosophila melanogaster with 36 samples.

Results

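The genes described here had more RNA in thoraxes of young flies whose muscles express PABPN1-17ala than in control thoraxes at day 2, but not at day 11. Of 13820 gene identifiers on the array, 80 were chosen by their values: a log2 difference, PABPN1-17ala minus control, of at least 0.4 with each dye and at least 0.6 on average at day 2, and of at most 0.3 on average at day 11. The choice left out 5 identifiers (CG11086, CG10206, CG1455, CG1512 and CG15678), of which all but CG11086 met these limits, and the identifiers that start with CR rather than CG. The values of days 2 and 11 thus chose the genes and are given as a description with no test, while the day 6 arrays were not used by these limits and day 6 was tested, with a variance that all 3 days share. In all, 131 identifiers met the limits of day 2, and 43 of them lay above the limit of day 11.

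PABPN1 is a nuclear protein that binds poly(A) tails and controls their length, and it also acts in the choice of the site where messenger RNAs are cleaved. An expanded run of alanines in this protein causes oculopharyngeal muscular dystrophy, and PABPN1-17ala is such an expanded form. The adult fly thorax is largely filled by flight muscle, whose fibres are built and mature in the pupa and in the first days of adult life. In stressed or damaged muscle, genes of several known programmes can be induced, among them chaperones, the eIF2alpha kinase arm of the stress response, NF-kB factors and secreted ligands of the TGF-beta family.

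Flies of genotype UAS-PABPN1-17ala/+; Mhc-Gal4/+ were compared with Mhc-Gal4/+ control flies at days 2, 6 and 11. Both genotypes carry the Mhc-Gal4 driver, which acts in muscle, and the control flies carry no PABPN1 transgene, so that the alanine expansion and the presence of the transgene cannot be told apart. Each of the 6 conditions has 3 RNA extracts of 50 thoraxes and 6 arrays, 3 with the thorax RNA in Cy5 (replicates 1 to 3) and 3 with it in Cy3 (replicates 4 to 6), and the other channel held a pool of control RNA of day 2. Every value below is a log2 ratio over this pool or a difference of such ratios, so a ratio of 0 is the level of the pool. The control arrays of day 2 need not stand at 0: their mean was 0.42 for Pepck1 and -0.47 for PEK. The ratios give no absolute level by which the tissue could be checked. In whole thoraxes, more cells of a type and more RNA per cell cannot be told apart. One label of PABPN1-17ala replicate 1 at day 2 names the control genotype, and it was kept with PABPN1-17ala as its title, description and strain say. Without it, 84 genes met the limits, among them 76 of the 80.

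At day 2 the 80 genes were higher by a median of 0.80, between 0.60 and 3.09, on the log2 scale. A difference of at least 1 was measured for 29 genes and of at least 2 for 8 genes. For 69 of the 80 genes, no control array reached any of the 6 PABPN1-17ala arrays of its dye, a pattern that 1.91% of all 13791 genes tested showed and that the choice of the genes favours. The median over the 80 genes on single arrays lay between 0.61 and 1.07 with PABPN1-17ala and between -0.06 and 0.11 in control flies at day 2. At day 6 it lay between 0.17 and 0.34 with PABPN1-17ala and between -0.01 and 0.07 in control flies. At day 11 the arrays of both genotypes overlapped, with -0.04 to 0.08 with PABPN1-17ala and -0.02 to 0.06 in control flies. The lowest array of PABPN1-17ala at day 2 was replicate 1, the one with the divergent label, on which 44 of the 80 genes had their lowest value of the condition. It also held the highest or lowest of the 6 values for 45.5% of all genes tested, against 18.5 to 40.3% on the other arrays of the condition. On the control arrays of day 2 this share was 18.5 to 50.6%, a range that holds the 45.5%.

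**Figure D1:**
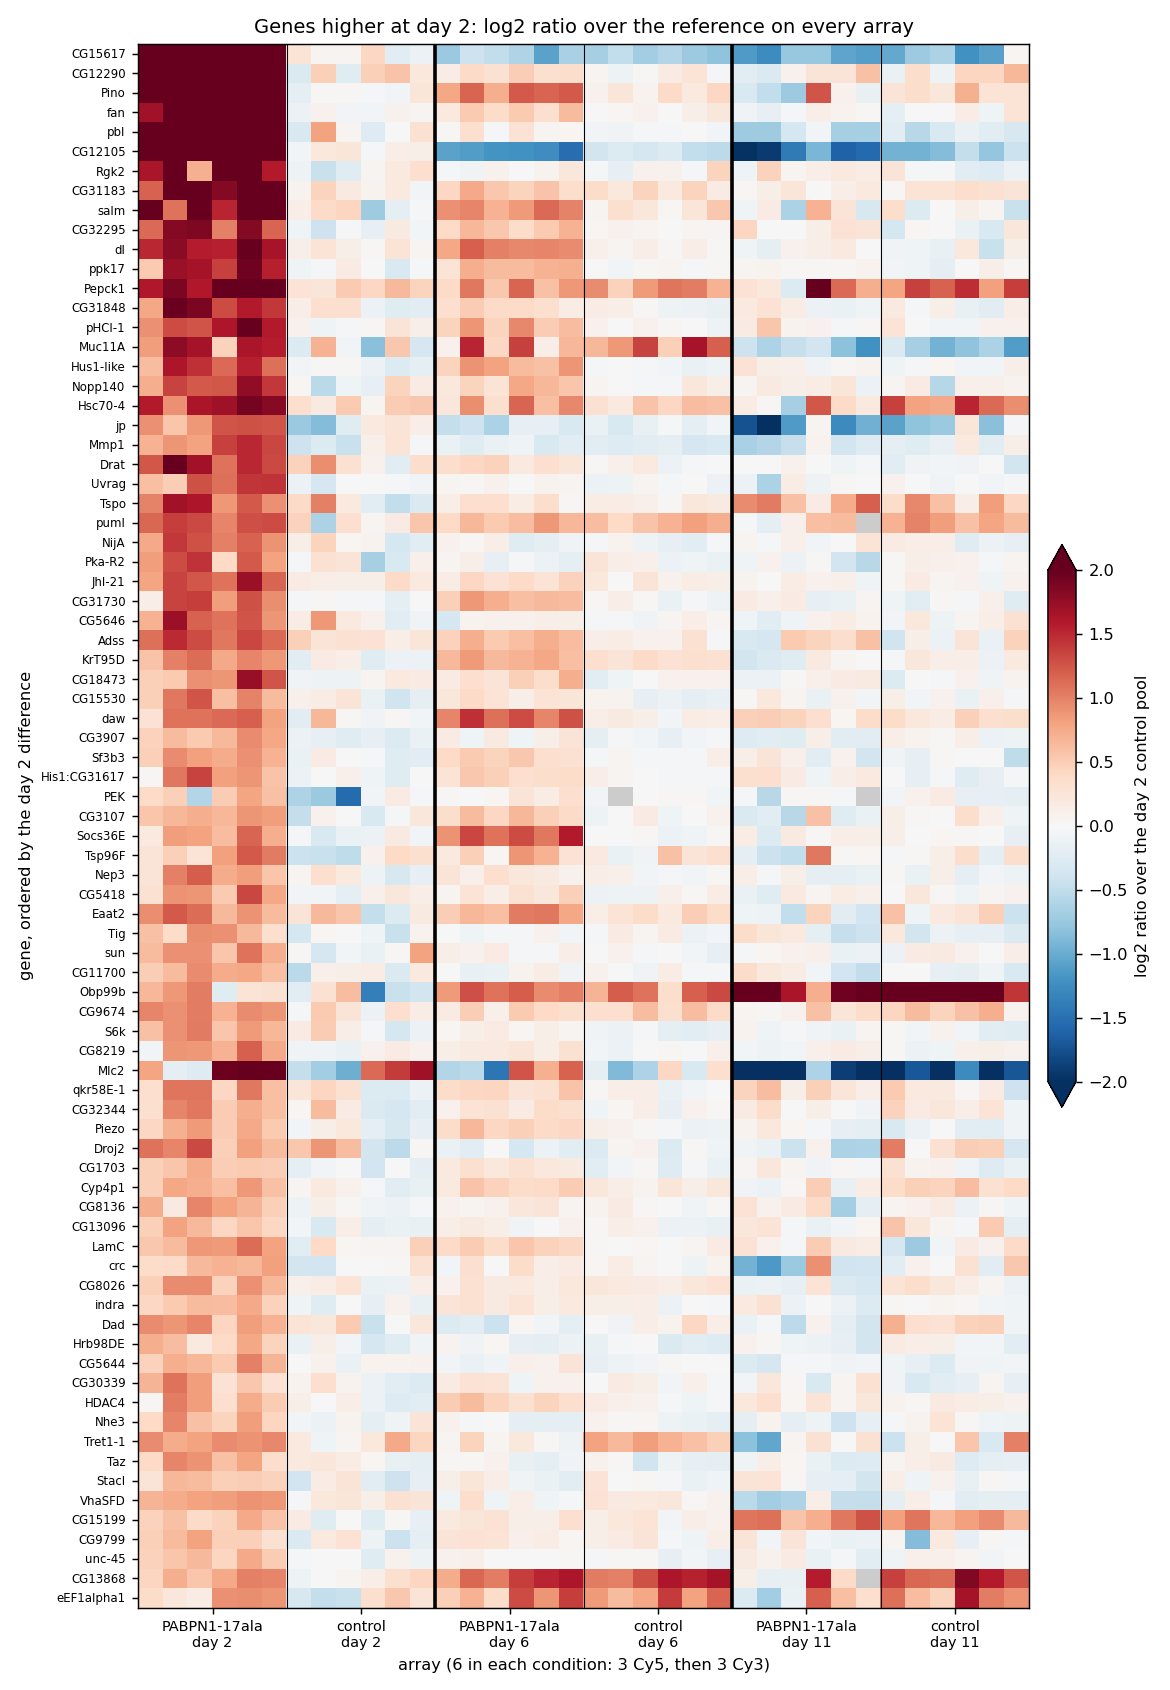
Log2 ratio over the day 2 control pool (colour, cut at -2 and 2, grey where a value is empty) of the 80 genes on every array, with PABPN1-17ala left of control at each day and genes in rows from the largest day 2 difference (3.09) to the smallest (0.60). The block of high values at day 2 is pale at day 6 and no longer seen at day 11 for most genes, while genes such as Obp99b and CG13868 stand higher and Mlc2 lower at later days in control flies too.

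CG15617 and CG12290, for which no role is given here, had the largest day 2 differences. CG15617 had log2 ratios of 2.99, 3.16 and 3.32 (lowest, median and highest array) with PABPN1-17ala at day 2, against -0.23, 0.06 and 0.41 in control flies, a difference of 3.09 or 8.50-fold. At day 6 its arrays overlapped, with -1.07, -0.62 and -0.41 with PABPN1-17ala and -0.80, -0.68 and -0.50 in control flies. Its mean level at days 6 and 11 was below that of day 2 control flies in both genotypes. CG12290 had 2.18, 3.20 and 3.54 with PABPN1-17ala and -0.29, 0.34 and 0.57 in control flies at day 2, and its day 6 difference of 0.27 did not pass the test (adjusted p = 1 from limma).

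Pino, a gene named for a role in olfactory behaviour, had 2.36, 2.81 and 3.27 with PABPN1-17ala at day 2, against -0.20, 0.00 and 0.24 in control flies. Its values at day 6 were 0.73, 1.17 and 1.23 with PABPN1-17ala and 0.07, 0.22 and 0.41 in control flies, a difference of 0.82 with no overlap (adjusted p = 0.151 from limma). fan encodes a relative of the VAP proteins of the endoplasmic reticulum and is known from the male germ line. It had 1.68, 2.81 and 3.32 with PABPN1-17ala and -0.11, 0.00 and 0.09 in control flies at day 2, and differed by 0.35 at day 6 (adjusted p = 1). At day 11 its arrays spanned -0.17 to 0.13 with PABPN1-17ala and -0.18 to 0.27 in control flies. fan was 1 of 47 genes in a list of testis and male germ line genes, whose median difference was 0.00 at day 2. The median of that list on single arrays of day 2 lay between -0.02 and 0.03 with PABPN1-17ala and between -0.10 and 0.06 in control flies.

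For 67 of the 80 genes the day 6 difference lay between those of days 2 and 11, for 11 it lay below that of day 11, and for 2 (Socs36E and daw) it was larger than at day 2. From day 2 to day 11 the mean level changed by a median of -0.86 with PABPN1-17ala and of 0.03 in control flies. It was lower by more than 0.3 for 77 genes with PABPN1-17ala and for 7 in control flies. It was higher by more than 0.3 for 2 genes with PABPN1-17ala and for 12 in control flies. The day 2 arrays that chose the genes enter each of these changes, which are therefore descriptions.

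At day 6, the 80 genes had a median difference of 0.18, between -0.84 and 1.23, against -0.01 over all 13791 genes tested. Both dyes gave a positive difference for 56 genes (70.0%, against 27.1% of all genes) and a negative one for 15 (18.8%, against 33.0%), and the dyes differed in sign for 9. A difference of at least 0.3 was measured for 28 genes (35.0%, against 2.81% of all genes). For 34 genes all 6 PABPN1-17ala arrays lay above the control arrays of their dye (42.5%, against 5.78% of all genes), and for 3 genes (CG12105, Tret1-1 and Dad) all 6 lay below (3.75%, against 4.61% of all genes). By limma, with p adjusted over all 13791 genes after Benjamini and Hochberg, 3 of the 80 were higher (3.75%, against 0.935% of all genes) and 1 was lower (1.25%, against 0.667%). At an unadjusted p below 0.05, 19 were higher (23.8%, against 2.84% of all genes) and 2 lower (against 2.09%). The test takes the larger p of both dyes with 3 arrays a condition on each, and 22 of the 80 genes (27.5%, against 2.94% of all genes) were called higher where all 36 arrays entered a single fit, which counts arrays of one extract as replicates.

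**Figure D2:**
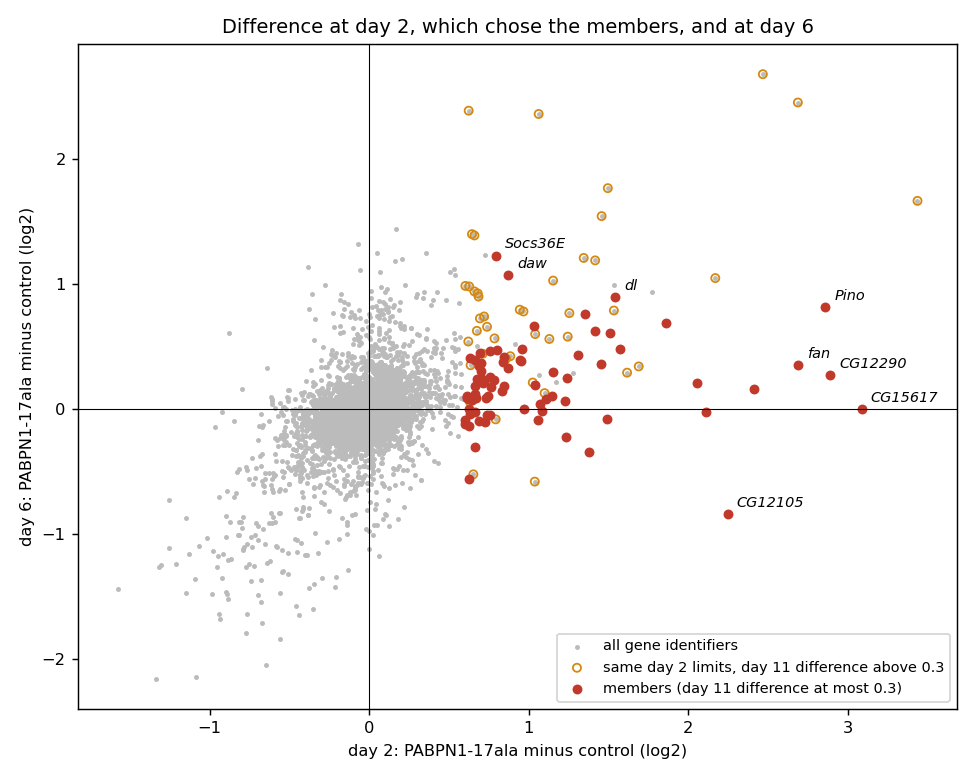
PABPN1-17ala minus control at day 2 (x axis) and day 6 (y axis), both on the log2 scale, for all gene identifiers (grey), the 80 genes (red) and the 43 that met the same day 2 limits but lay above 0.3 at day 11 (open orange circles). The 80 genes were chosen by their place on the x axis. On the y axis they spread from -0.84 (CG12105) to 1.23 (Socs36E), and the 43 others sit higher, with a median of 0.77.

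The 43 genes above the day 11 limit give a comparison for day 6. Their median day 2 difference of 0.94 was close to the 0.80 of the 80 genes, and their median day 6 difference was 0.77, against 0.18. Of these 43 genes, 39 had a positive difference with both dyes at day 6 and 23 (53.5%) were called higher, against 56 of 80 and 3 of 80. These 2 sets were split by the day 11 difference. Unlike for the 80, no identifier was left out of the 43 by name or for starting with CR. The difference between the 2 sets at day 6 was not tested.

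The 3 genes called higher at day 6 are placed here with 6 others under signalling, a group drawn up with results known and not tested as a group. Socs36E, an inhibitor of JAK/STAT signalling that is itself a target of the pathway, had log2 ratios of 0.90, 1.19 and 1.59 with PABPN1-17ala at day 6 and -0.12, 0.00 and 0.03 in control flies. The groups did not overlap, and the difference was 1.09 ± 0.16 with Cy5 and 1.37 ± 0.14 with Cy3 (SE, n = 3 arrays a group), or 1.23 on average (adjusted p = 0.00122 from limma). At day 2 Socs36E was higher by 0.80, with 0.19, 0.76 and 1.16 with PABPN1-17ala and -0.30, -0.08 and 0.18 in control flies, so that its largest difference was at day 6. At day 11 the values of both genotypes overlapped, spanning -0.27 to 0.18 with PABPN1-17ala and -0.17 to 0.12 in control flies.

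dl encodes Dorsal, an NF-kB factor of the Toll pathway. At day 6 it had 0.78, 0.97 and 1.20 with PABPN1-17ala and 0.03, 0.08 and 0.13 in control flies. The difference was 0.89 ± 0.11 with Cy5 and 0.90 ± 0.14 with Cy3 (SE from limma, n = 3 arrays a group, adjusted p = 0.00259 from limma). Both dyes gave nearly the same value. At day 2 it was higher by 1.54, with 1.51, 1.61 and 2.02 with PABPN1-17ala and 0.02, 0.11 and 0.28 in control flies. With PABPN1-17ala, its day 6 values stood between those of day 2 and those of day 11, which spanned -0.20 to 0.19.

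daw encodes Dawdle, an activin-like ligand of the TGF-beta family. Its values at day 6 were 0.97, 1.18 and 1.46 with PABPN1-17ala and -0.06, 0.14 and 0.18 in control flies. The difference was 1.04 ± 0.21 with Cy5 and 1.11 ± 0.12 with Cy3 (SE from limma, n = 3 arrays a group), or 1.07 on average (adjusted p = 0.0168 from limma). The groups did not overlap, but the call was lost without PABPN1-17ala replicate 2 (adjusted p = 0.105), without PABPN1-17ala replicate 3 (0.0502) and without control replicate 1 (0.064), 2 (0.0567) or 3 (0.068), and by the linear model without moderated variances (0.0663), while the difference stayed between 1.00 and 1.21 under the alternatives. At day 2 daw was higher by 0.87, and 5 of 6 PABPN1-17ala arrays lay above the control arrays of their dye.

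**Figure D3:**
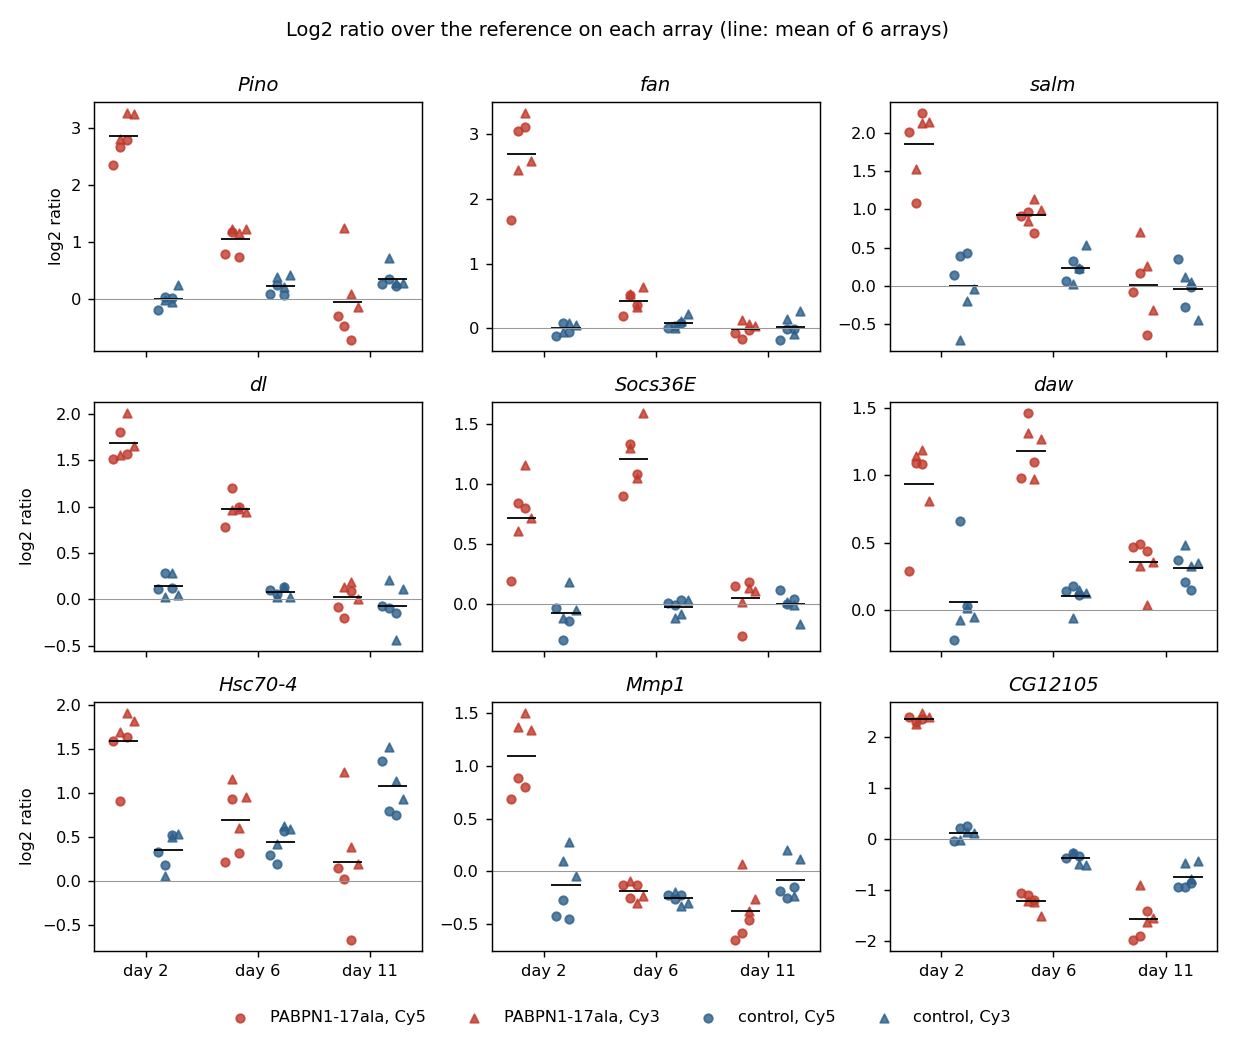
Log2 ratio over the day 2 control pool of 9 of the genes on each array (circles Cy5, triangles Cy3, black lines the mean of 6 arrays), with PABPN1-17ala (red) left of control (blue) at each day. Pino, fan, salm and dl have their largest difference at day 2, Socs36E and daw at day 6, and CG12105 lies above the control arrays at day 2 and below them at day 6.

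The other signalling genes were not called at day 6. Dad, an inhibitory Smad of the BMP pathway, was higher by 0.66 at day 2, and at day 6 it had -0.43, -0.20 and 0.04 with PABPN1-17ala and -0.07, 0.10 and 0.42 in control flies, a difference of -0.30 with all 6 arrays below the control arrays of their dye (adjusted p = 1). pbl, which encodes Pebble, a protein of dividing cells, had 2.11, 2.52 and 2.87 with PABPN1-17ala and -0.30, 0.02 and 0.81 in control flies at day 2. Its difference was 2.42 at day 2 and 0.16 at day 6. CG31183, by sequence a receptor guanylate cyclase, had a difference of 2.06 at day 2 and 0.21 at day 6. S6k, the S6 kinase of growth control, differed by 0.72 and 0.22, HDAC4, a class IIa deacetylase, by 0.63 and 0.41, and Pka-R2, a regulatory subunit of protein kinase A, by 1.06 and -0.08. All 9 signalling genes taken as a list had median differences of 0.87, 0.22 and 0.04 at the 3 days. At day 6, 7 of them had a positive difference with both dyes, against 70.0% of all the chosen genes and 27.1% of all genes tested.

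CG12105, for which no role is given here, was the gene called lower at day 6. It had 2.24, 2.36 and 2.46 with PABPN1-17ala at day 2, against -0.05, 0.12 and 0.24 in control flies, a difference of 2.25. At day 6 it had -1.52, -1.20 and -1.07 with PABPN1-17ala and -0.52, -0.36 and -0.28 in control flies. It was called lower at day 6, with a difference of -0.79 ± 0.12 with Cy5 and -0.89 ± 0.16 with Cy3 (SE from limma, n = 3 arrays a group), or -0.84 on average (adjusted p = 0.0052 from limma). At day 11 the difference was -0.82, with -1.98, -1.59 and -0.91 with PABPN1-17ala and -0.95, -0.83 and -0.43 in control flies. These values overlapped over both dyes, but all 6 PABPN1-17ala arrays lay below the control arrays of their dye, as for no other of the 80 genes at day 11. In control flies its mean level was 0.10, -0.38 and -0.74 at days 2, 6 and 11.

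Genes of the muscle fibre were among the 80. salm, the zinc finger factor that sets the fibrillar type of flight muscle, had 1.08, 2.07 and 2.26 with PABPN1-17ala and -0.71, 0.05 and 0.43 in control flies at day 2, a difference of 1.86. On day 6 it had 0.69, 0.94 and 1.14 with PABPN1-17ala and 0.03, 0.23 and 0.54 in control flies, with no overlap and a difference of 0.69 that did not pass the test (adjusted p = 0.53). Rgk2, a small GTPase of a family known in mammals to inhibit calcium channels, had 0.71, 1.93 and 3.54 with PABPN1-17ala at day 2, the widest spread of the genes above 2, against -0.44, -0.02 and 0.33 in control flies. Its difference was 2.11 at day 2 and -0.02 at day 6.

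jp, the junctophilin that holds the plasma membrane and the calcium store together, was higher by 1.23 at day 2, with 0.55, 1.09 and 1.27 with PABPN1-17ala and -0.87, -0.06 and 0.25 in control flies. Its difference was -0.22 at day 6 and -0.68 at day 11. LamC, an A-type lamin, differed by 0.67, 0.40 and 0.28 at the 3 days, Stacl, a regulator of muscle calcium channels, by 0.62, 0.00 and -0.03, and unc-45, the chaperone of myosin, by 0.61, 0.10 and -0.02. Mlc2, the regulatory light chain of myosin, depended on the dye: at day 2 it had -0.26, 1.38 and 2.01 with PABPN1-17ala and -0.98, 0.33 and 1.70 in control flies, and its day 6 difference was -0.30 with Cy5 and 0.90 with Cy3. The group of 7 genes had a median of 0.70 at day 2 and 0.10 at day 6, and none was called. A list of 23 tested flight muscle genes, in which salm and Mlc2 stand, had median differences of 0.07, -0.17 and -0.19 at the 3 days, and 0 of its genes were called higher and 1 lower at day 6. On single arrays of day 6 the median of that list ranged from -1.08 to -0.11 with PABPN1-17ala and from -0.49 to 0.00 in control flies, and its part in the values of the 80 genes was not tested.

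**Figure D4:**
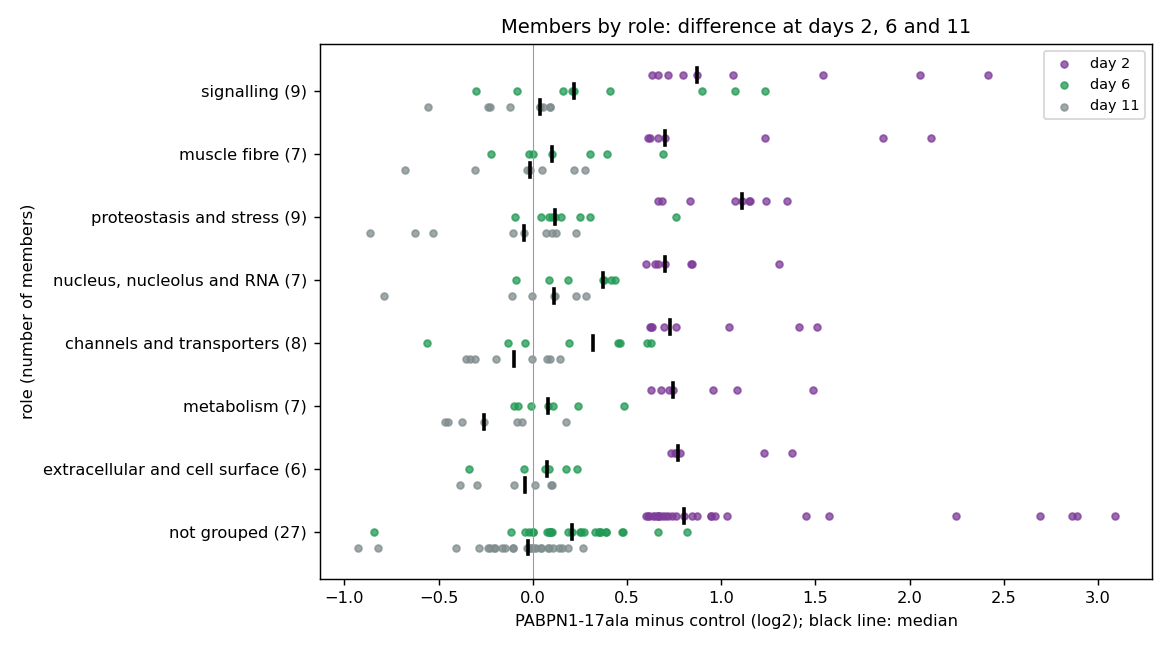
PABPN1-17ala minus control (log2, x axis) at days 2, 6 and 11 for each of the 80 genes, by role group with its number of genes, black lines marking the medians. In each group the day 2 values lie above 0.60 by the choice of the genes, and the median of day 6 lies between those of days 2 and 11, from 0.08 to 0.37.

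Chaperone and stress genes formed a group of 9 with a median difference of 1.11 at day 2, 0.12 at day 6 and -0.04 at day 11. Hsc70-4, the constitutive Hsc70 chaperone of the cytosol, had 0.91, 1.67 and 1.91 with PABPN1-17ala at day 2 and 0.06, 0.42 and 0.54 in control flies. By day 6 it had 0.22, 0.77 and 1.16 with PABPN1-17ala and 0.19, 0.50 and 0.63 in control flies, which overlapped (difference 0.25, adjusted p = 1). At day 11 the order was turned, with -0.67, 0.17 and 1.24 with PABPN1-17ala and 0.75, 1.04 and 1.52 in control flies, a difference of -0.86. Its level was thus higher at day 11 than at day 2 in control flies and lower with PABPN1-17ala. Droj2, a DnaJ co-chaperone, differed by 0.69, -0.10 and -0.63 at the 3 days. The 24 heat shock and Hsc genes as a list had a median of 0.04 at day 2, and Hsc70-4 alone of them met the limits.

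PEK, the kinase of eIF2alpha in the unfolded protein response, and crc, the fly ATF4 that acts downstream of it, stood in a list of 15 stress response genes with a median difference of 0.04 at day 2. Another gene of this list, Thor, the fly 4E-BP that inhibits translation, met the limits of day 2 but not that of day 11, with differences of 1.26, 0.77 and 1.17 at the 3 days. PEK differed by 0.84 at day 2 and 0.15 at day 6, having -0.58, 0.49 and 0.79 with PABPN1-17ala against -1.54, -0.34 and 0.16 in control flies at day 2, which overlapped over both dyes. crc differed by 0.67 at day 2, having 0.37, 0.66 and 0.82 with PABPN1-17ala against -0.39, 0.01 and 0.31 in control flies, by 0.12 at day 6 and by -0.53 at day 11.

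Hus1-like, a subunit of the checkpoint clamp that loads at damaged DNA, was among the genes that kept most of their difference, with 0.44, 0.72 and 0.90 with PABPN1-17ala and -0.14, -0.04 and 0.01 in control flies at day 6 (difference 0.76, adjusted p = 0.0747, no overlap). Its difference was 1.35 at day 2. Uvrag, a subunit of the Vps34 lipid kinase complex of autophagy and endosome traffic, differed by 1.15 at day 2 and 0.10 at day 6, and Drat, an alcohol dehydrogenase-like protein described in cell death, by 1.15 and 0.30. Tspo, a protein of the outer mitochondrial membrane, differed by 1.11 and 0.08 and NijA, a ninjurin of the cell surface, by 1.07 and 0.04.

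Of the 7 genes of the nucleus, the nucleolus and RNA, 6 had a positive difference with both dyes at day 6. This share was 70.0% of all the chosen genes and 27.1% of all genes tested. The median of the 7 genes at day 6 was 0.37. Nopp140, a nucleolar chaperone of small nucleolar RNPs, had 0.72, 1.30 and 1.78 with PABPN1-17ala and -0.54, -0.02 and 0.45 in control flies at day 2. Its difference was 1.31 at day 2 and 0.44 at day 6, where the arrays of both genotypes did not overlap within a dye (adjusted p = 1). In a list of 21 genes of the nucleolus and ribosome biogenesis, the median difference at day 2 was 0.10, with 12 genes above 0 on both dyes and 0 below. Sf3b3, a splicing factor, differed by 0.85 at day 2 and 0.41 at day 6, qkr58E-1, a KH domain RNA-binding protein, by 0.70 and 0.37, and indra, a zinc finger protein that binds ribosomal DNA, by 0.66 and 0.19. Hrb98DE, an hnRNP protein, differed by 0.65 and 0.09. His1:CG31617, a copy of the linker histone gene, differed by 0.84 and 0.38 and shares its sequence with further copies. eEF1alpha1, the translation elongation factor, was the gene just inside the day 2 limit with 0.60, and its level was higher at days 6 and 11 than at day 2 in control flies (means of -0.02, 0.94 and 0.96).

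Of the 8 channels and transporters, none was called at day 6. With both dyes, 5 had a positive and 3 a negative difference. These shares were 70.0% and 18.8% of all the chosen genes, and 27.1% and 33.0% of all genes tested. pHCl-1, a chloride channel gated by pH, had 0.44, 0.56 and 0.96 with PABPN1-17ala and -0.10, 0.01 and 0.09 in control flies at day 6 (difference 0.63, adjusted p = 0.112) after a day 2 difference of 1.41. ppk17, of the DEG/ENaC sodium channel family, had 0.28, 0.67 and 0.73 with PABPN1-17ala against -0.05, 0.02 and 0.06 in control flies at day 6 (difference 0.61, adjusted p = 0.626) and 1.51 at day 2. Piezo, the mechanically gated channel, had 0.36, 0.41 and 0.66 with PABPN1-17ala against -0.12, 0.00 and 0.11 in control flies at day 6 (difference 0.45, adjusted p = 0.139). The arrays did not overlap for these 3 genes. Eaat2, an excitatory amino acid transporter, differed by 0.76 at day 2 and 0.47 at day 6, and JhI-21, an amino acid transporter, by 1.04 and 0.19.

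The trehalose transporter Tret1-1 lay below control at day 6, with -0.10, 0.05 and 0.44 with PABPN1-17ala and 0.48, 0.67 and 0.84 in control flies, a difference of -0.56 with no overlap (adjusted p = 0.721, unadjusted p = 0.0315). At day 2 it had been higher by 0.63, having 0.74, 0.92 and 0.96 with PABPN1-17ala and -0.09, 0.20 and 0.76 in control flies. VhaSFD, a subunit of the vacuolar proton pump, differed by 0.62 at day 2 and -0.13 at day 6, and Nhe3, a sodium/hydrogen exchanger, by 0.63 and -0.04.

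Genes of metabolism had a median difference of 0.75 at day 2, 0.08 at day 6 and -0.26 at day 11. Pepck1, the PEP carboxykinase of gluconeogenesis, had 1.60, 1.95 and 2.20 with PABPN1-17ala and 0.24, 0.42 and 0.65 in control flies at day 2. At day 6 both groups overlapped, with 0.38, 0.72 and 1.17 with PABPN1-17ala and 0.46, 0.90 and 1.07 in control flies. In control flies its mean level was 0.42, 0.84 and 1.17 at the 3 days. Adss, an enzyme of AMP synthesis, differed by 0.96 at day 2 and 0.49 at day 6 (adjusted p = 0.709, no overlap). puml, a lipid hydrolase, differed by 1.08 and -0.01, CG9674, a glutamate synthase, by 0.72 and -0.10, sun, the epsilon subunit of the mitochondrial ATP synthase, by 0.75 and 0.11, and Taz, the tafazzin of cardiolipin remodelling, by 0.63 and 0.08. Cyp4p1, a cytochrome P450, differed by 0.68 and 0.24. Its neighbour and paralog Cyp4p2, which is not one of the 80, differed by 1.04 and 0.60, and cross-reaction between their probes was not tested.

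Among genes of the cell surface and matrix, Mmp1, a matrix metalloproteinase and target of the JNK pathway, had 0.69, 1.11 and 1.50 with PABPN1-17ala and -0.45, -0.15 and 0.28 in control flies at day 2. Its day 6 arrays spanned -0.30 to -0.09 with PABPN1-17ala and -0.33 to -0.20 in control flies, a difference of 0.07 (adjusted p = 1). Of 23 identifiers of JNK pathway and damage response genes, it alone met the limits, and the median of the list was -0.02 at day 2. Tig, the integrin ligand tiggrin of muscle attachment sites, differed by 0.75 at day 2 and -0.05 at day 6, Nep3, a neprilysin peptidase, by 0.76 and 0.17, and Tsp96F, a tetraspanin, by 0.78 and 0.23. Muc11A, a mucin, had 0.46, 1.61 and 1.79 with PABPN1-17ala at day 2 and -0.84, -0.17 and 0.69 in control flies. Its difference was 1.38 at day 2 and -0.34 at day 6, when its arrays spread widely in both genotypes, over 0.09 to 1.52 with PABPN1-17ala and 0.48 to 1.66 in control flies. Obp99b, an odorant-binding protein, differed by 0.73 at day 2 and 0.09 at day 6, and its mean level in control flies was -0.25, 0.98 and 2.20 at the 3 days.

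Of the 27 genes given no role group, 24 carry a CG number, and the others are Pino, fan and KrT95D. Their median difference was 0.80 at day 2 and 0.21 at day 6. At day 6, 20 of them had a positive difference with both dyes, and CG12105 alone was called. The share with a positive difference was 70.0% of all the chosen genes and 27.1% of all genes tested. In the role groups not yet counted it was 3 of 7 for the muscle fibre and 4 of 7 for metabolism. It was 4 of 6 for the cell surface and matrix and 7 of 9 for chaperone and stress genes. CG32295 had a difference of 1.57 at day 2 and 0.48 at day 6, with 0.36, 0.53 and 0.70 with PABPN1-17ala and 0.01, 0.05 and 0.08 in control flies (adjusted p = 0.461). CG31730 differed by 1.03 and 0.66, having 0.48, 0.63 and 0.86 with PABPN1-17ala against -0.13, 0.00 and 0.14 in control flies at day 6 (adjusted p = 0.426), CG3107 by 0.80 and 0.48 and KrT95D by 0.95 and 0.39. The day 6 arrays of these 4 genes did not overlap within a dye.

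Near the limits, CG13868 and unc-45 followed eEF1alpha1 with day 2 differences of 0.60 and 0.61, and nonA, CG33297 and PlexB stood outside with 0.58, 0.58 and 0.57. By the lower dye, Droj2, Tret1-1 and qkr58E-1 were nearest with 0.45, 0.47 and 0.50. At day 11, His1:CG31617, LamC and CG32295 were inside with 0.28, 0.28 and 0.27, and Hel25E, RpL27 and Rsod outside with 0.30, 0.31 and 0.33. Left out in turn, the 12 arrays of day 2 gave 69 to 86 genes that met the limits, of which 69 to 79 were among the 80, and the 12 of day 11 gave 78 to 83, of which 77 to 80 were.

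The lists of known pathways and of markers of other tissues held few of the 80 genes. Of 20 lists, 6 held a member and 14 held none, among them those of oxidative stress and detoxification, immune effectors, the circadian clock, calcium signalling, cullin ligases and p53, Xrp1 and cell death. In the oxidative stress list, GstD1 met the limits of day 2 but not that of day 11. Its differences were 2.17, 1.05 and 1.37 at the 3 days (adjusted p = 0.0215 from limma at day 6). The calcium and cullin lists each hold 1 identifier that met the limits and was left out of the choice: CG1455, with differences of 1.53, 0.99 and 0.12 at the 3 days (adjusted p = 0.000271 at day 6), and CG1512, with 1.17, 0.22 and -0.41. In the list of p53, Xrp1 and cell death, 6 of 15 genes were called higher at day 6, against 0.935% of all genes. The lists were drawn up with earlier results of these data known, and this count was not tested. The median difference of this list was 0.05 at day 2 and 0.20 at day 6. Over the 9 lists of markers of tissues other than flight muscle (testis, accessory gland, ovary, cuticle, larval fat body, gut, hemocyte, nervous system, trachea and epidermis), the list medians lay between -0.05 and 0.05 at day 2 and between -0.09 and 0.03 at day 6, and 0 of 296 genes were called higher and 1 lower at day 6. At day 11 the list medians lay between -0.06 (nervous system) and 0.22 (gut). The gut genes betaTry and Jon99Ciii met the limits of day 2 but not that of day 11. They differed by 0.65 and 0.79 at day 2 and by 1.93 and 2.05 at day 11.

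By chromosome, 21 of the 80 genes lie on 2L (26.3%, against 17.4% of genes tested), 19 on 2R (23.8%, against 19.2%), 14 on 3L (17.5%, against 18.7%), 19 on 3R (23.8%, against 23.9%), 7 on X (8.75%, against 15.6%) and 0 on the fourth. Neighbours were looked up because the protein studied acts at the sites where RNAs are cleaved. Along the annotated order of genes, Pepck1 lies next to Rgk2 and Droj2 next to CG9799, so 4 of the 80 genes (5.00%) had a neighbour among them, against 0.911% of all genes tested. In the first pair the differences were 1.49 and 2.11 at day 2 and -0.08 and -0.02 at day 6. The second had 0.69 and 0.61 at day 2 and -0.10 and 0.09 at day 6. Of 113 tested neighbours outside the 80, 2 had a day 2 difference of at least 0.4 with each dye (1.77%, against 1.27% of all genes tested): Cyp4p2 beside Cyp4p1, and Rsod beside Mlc2 with 2.47 at day 2, 2.68 at day 6 and 0.33 at day 11. The share of all genes includes the 80, which meet this limit by choice, while the neighbours exclude them, so the shares are not alike. The median day 2 difference of the 113 neighbours was 0.01. The strand of the genes was not used here.

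The array also holds 23 spots with no fly gene, among them one for the coding sequence of Gal4, the driver protein that both genotypes carry. This spot had 0.35, 0.65 and 1.02 with PABPN1-17ala at day 2, against -0.77, -0.41 and 0.09 in control flies, a difference of 1.01 with all 6 arrays above the control arrays of their dye. At day 6 it had -1.27, -0.87 and -0.74 with PABPN1-17ala and -1.60, -1.34 and -1.30 in control flies, a difference of 0.43, again with all 6 arrays above. At day 11 it had -2.87, -2.48 and -0.53 with PABPN1-17ala and -2.76, -2.20 and -1.65 in control flies, which overlapped. The differences of the other 22 spots lay between -0.23 and 0.11 at day 2. The difference of the Gal4 spot was 0.01 at day 11 and so fell over the days. The 80 genes were chosen to be higher at day 2 than at day 11, so a like order carries no information. The part of the Gal4 spot in the results was not tested.

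**Figure D5:**
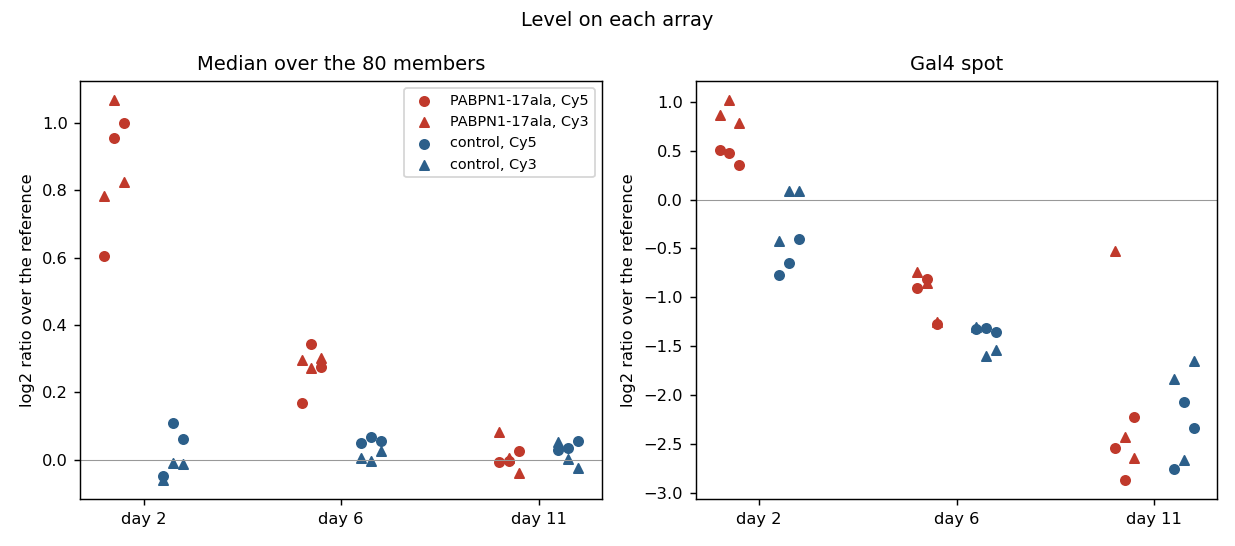
Median log2 ratio of the 80 genes (left panel) and log2 ratio of the Gal4 spot (right panel) on each array, both over the day 2 control pool, with PABPN1-17ala (red) left of control (blue) at days 2, 6 and 11 and circles for Cy5 and triangles for Cy3. The genotypes are apart at day 2 in the left panel (0.61 to 1.07 with PABPN1-17ala, against -0.06 to 0.11 in control flies) and overlap at day 11, and in the right panel both genotypes stand lower at the later days.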

How the data were processed

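Thorax RNA of flies expressing PABPN1-17ala and of control flies at days 2, 6 and 11 was measured on 36 two-colour arrays, 6 for each condition. The authors deposited 1 normalized log2 ratio of each gene and array. The log base, the direction, the background correction and the normalization are not given in the sources used here. They were taken as log2 values, thorax RNA over reference, and the direction rests on GstD1 being higher with PABPN1-17ala, as a reporter in the paper was. Signal intensities were not used. The number of arrays limits the precision. The sources do not say which arrays of both dyes come from one extract, so p-values measure the spread between arrays, which may be technical.

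The 18 arrays of a dye made up one fit of limma 3.58.1 (R 4.3.3), in which every condition had its own mean. The difference at day 6 is the mean of both dyes and p the larger of both, or 1 where signs differ, with Benjamini-Hochberg adjustment over the 13791 genes with at least 2 of 3 values in each condition and dye and a threshold of 0.05. The fit was tested on simulated data. Symbols and neighbours came from release 6 of the fly annotation in RefSeq, in which all 80 genes were found (12047 of the 13820 identifiers by locus tag and 1153 by synonym), and no coordinates are given since the build of the probes is not named. Strand, promoters and sequences were not used here.

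The 80 genes, the role groups and the gene lists were chosen with earlier results of these data known. Genes named were the 12 with the largest day 2 difference, the 12 with the largest and 6 with the smallest day 6 difference, those called, those with a symbol other than a CG number, those in a list and those 3 nearest to each limit. Alternatives were a single fit of all arrays, each dye alone, assumed pairs, a replicate block, the 2 conditions alone, no moderation, centring, quantile normalization, filters on empty values and spread, a threshold of 0.01 and leaving out each array.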

Additional observations from a re-analysis of the deposited data

Results flagged for a closer look

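The Gal4 spot lies outside the gene measurements and differed between the genotypes, although both carry the driver. PABPN1-17ala minus control was 1.01 at day 2 and 0.43 at day 6, with all 6 arrays above the control arrays of their dye, and no other of the 23 spots without a fly gene showed this at either day. On the Gal4 spot, PABPN1-17ala replicate 4 of day 11 stood at -0.53, far above the other 5 arrays of its condition. For daw, 1 control array of day 6 stood at -0.06, below the other 5. Of 20 groups of 6 arrays looked at for such a sample, these 2 were found, and about 1 in 20 is found by chance.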

How the results depend on the processing

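The members and lists were chosen with results of these arrays known, and the limits did not use the day 6 arrays. Calls at day 6 are limited by 3 arrays a condition and dye, and they also vary with the days that share the variance. Of the 80 genes, 3 were called higher at day 6. This count was 22 with all 36 arrays in 1 fit, 16 with only the 2 conditions of day 6, 15 with means of assumed pairs, 14 with Cy3 and 6 with Cy5 alone, and 8 where arrays of a dye were quantile normalized. The count over all genes tested was 129, and 406, 267, 378, 261, 174 and 228 under these settings. The genes called lower were 2, not 1, with assumed pairs and with the 2 conditions alone. Leaving out each array gave 2 to 4 genes higher and 1 lower. With the replicate number as a block, 3 were higher and 1 lower and the median difference was 0.180. The deviations of same-numbered arrays of both genotypes correlated between 0.09 and 0.19 at day 2, -0.12 and 0.17 at day 6 and -0.06 and 0.28 at day 11, so the numbers were not taken to pair the arrays. Under 19 alternatives the median stayed between 0.14 and 0.20, and between 0.156 and 0.184 with each array left out. Socs36E, dl and CG12105 kept their calls in 24 of 24 alternatives and daw in 17. The number of genes that met the limits was 82 after centring, 102 after quantile normalization and 69 to 86 with an array left out. Distance limits to an upstream neighbour on the same strand were not run, since no strand was given.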

Other observations

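Several of the 80 genes spread widely over the arrays of PABPN1-17ala at day 11. On PABPN1-17ala replicate 4 of day 11, 28 of the 77 genes with all values had the highest value of their condition, against 4 to 20 on the other 5 arrays. Over all genes, replicate 4 held the highest or lowest of the 6 values for 39.7%, against 18.3 to 40.5% on the other 5 arrays. On this array Pepck1 stood at 2.24, crc at 0.92, Pino at 1.25, Hsc70-4 at 1.24 and jp at 0.05, and the lowest arrays of the condition had -0.27, -1.15, -0.73, -0.67 and -2.27 for these genes. Without it, 78 genes met the limits of the choice, all of them among the 80.

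Some of the genes had different levels at the 3 days in control flies, where age and the extracts and arrays of each day cannot be told apart. From day 2 to day 11, the mean level of Obp99b was higher by 2.45, and that of Mlc2 was lower, at -1.90 on day 11 against 0.35 on day 2. For CG13868 the control mean was 0.14, 1.36 and 1.39 at the 3 days, and with PABPN1-17ala it was 0.74, 1.24 and 0.46. CG15199 was higher at day 11 than at day 2 in both genotypes, with means of 0.53 and 0.96 at days 2 and 11 with PABPN1-17ala and -0.08 and 0.83 in control flies.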
